A study of Mus musculus with 40 samples.

Results

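*Apoa2*, *Nod1* and *Tlr2* are 3 of the 56748 genes counted in the series. They were picked by name because their counts were higher in cells without lamins at both stages of culture. The differences of TKO and QKO from WT, and of QKO from LBRKO, are therefore given as a description and carry no test. All 3 genes were among the 23399 that passed the filter on low counts. *Nod1* and *Tlr2* had at least 32 reads in every library, whereas *Apoa2* passed only through its counts in TKO and QKO. Total RNA had been sequenced from XY mouse embryonic stem cells (mES cells), held in the naive state by 2i and LIF, and from epiblast-like cells (EpiLCs), the same cells after 48 h in FGF (20 ng/mL) with Activin A (12 ng/mL). At each stage there were 8 libraries of WT cells and 4 of each mutant, which makes 40 libraries in 8 groups. LBRKO cells carried a disrupted *Lbr*, the gene of the lamin B receptor. TKO cells lacked *Lmna*, *Lmnb1* and *Lmnb2*. QKO cells lacked these 3 genes and also carried indels in *Lbr*. TKO cells were 1 line with a WT line from a littermate, QKO cells were 1 clone made from the TKO line, and the labels do not say which of several LBRKO clones gave a library. Each library came from 1 culture well, so p-values measure the spread between wells, and lamin loss cannot be told apart from other differences between lines.

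Lamins form the meshwork under the inner nuclear membrane, and lamins and LBR hold silent chromatin at the nuclear edge. ApoA-II, the product of *Apoa2*, is a structural protein of high-density lipoprotein that liver secretes and that the visceral endoderm of the early embryo also makes. NOD1 is a receptor in the cytosol for fragments of bacterial peptidoglycan. It passes its signal through the kinase RIPK2 to NF-kB. TLR2 sits at the cell surface, where it pairs with TLR1 or TLR6 to bind bacterial lipopeptides and signals through the adaptors TIRAP and MyD88 and the IRAK kinases to the same factor. Naive pluripotent cells are known for weak responses to microbial products.

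On GRCm39, *Apoa2* (ENSMUSG00000005681.13) lay on the plus strand of chr1:171052623-171053948, with 537 bp of exons. *Nod1* (ENSMUSG00000038058.15) lay on the minus strand of chr6:54900934-54949597, a span of 48664 bp with 5079 bp of exons. *Tlr2* (ENSMUSG00000027995.11) lay on the minus strand of chr3:83743579-83749074, a span of 5496 bp with 3014 bp of exons. The 250 bases before each annotated start are shown 5′ to 3′ on the gene's own strand to show the sequence just before the start used for each gene. Starts are those of the gene table. GENCODE M39 places the start of *Apoa2* farther upstream, at position 171049125, and the windows of *Apoa2* and *Nod1*, but not that of *Tlr2*, were found in the RefSeq promoter table. Capitals mark a TATAAA in *Apoa2*, a GGGCGG (the core of a GC box) in *Nod1* and a match to the NF-kB (kappa B) consensus in *Tlr2*.

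Apoa2, chr1:171052373-171052622: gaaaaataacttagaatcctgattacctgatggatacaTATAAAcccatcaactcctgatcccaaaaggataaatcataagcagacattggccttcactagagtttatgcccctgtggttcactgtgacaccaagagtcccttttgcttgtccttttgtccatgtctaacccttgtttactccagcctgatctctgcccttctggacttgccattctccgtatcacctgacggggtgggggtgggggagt
Nod1, chr6:54949598-54949847: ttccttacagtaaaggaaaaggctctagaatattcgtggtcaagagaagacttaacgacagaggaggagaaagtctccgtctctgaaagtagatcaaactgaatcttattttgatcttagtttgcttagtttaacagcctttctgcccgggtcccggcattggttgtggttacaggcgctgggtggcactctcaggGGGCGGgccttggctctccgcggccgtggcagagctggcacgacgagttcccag
Tlr2, chr3:83749075-83749324: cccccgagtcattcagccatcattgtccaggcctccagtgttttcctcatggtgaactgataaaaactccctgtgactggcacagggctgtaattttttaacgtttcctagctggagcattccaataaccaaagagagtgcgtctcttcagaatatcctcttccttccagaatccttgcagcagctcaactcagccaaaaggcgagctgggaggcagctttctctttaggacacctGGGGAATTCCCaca

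The 3 stretches differed in base composition. GC content was 46.4% in *Apoa2*, 51.6% in *Nod1* and 49.2% in *Tlr2*, against a median of 52.4% over 32544 promoters of the same length. CpG dinucleotides numbered 2, 12 and 4, against a median of 6. Both strands were searched, and TATAAA occurred in 12.3% of all promoters, GGGCGG in 33.0% and the kappa B consensus in 7.28%. The 3 kappa B matches in *Tlr2* overlap each other in the same letters. CCAAT was the only motif searched that all 3 stretches held, and 33.8% of promoters held it. Of the other motifs searched, none of the 3 held TATATA (in 5.01% of promoters), the E box CACGTG (in 6.03%), GGAAGT (in 19.8%) or TGACCT (in 14.0%). A match describes letters and is not a measured site.

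Counts assigned to genes ran from 22.6 to 48.9 M per library. WT replicates 1 to 4, TKO and QKO had 22.6 to 33.6 M, whereas WT replicates 5 to 8 and LBRKO had 39.4 to 48.9 M. The targeted *Lmnb1*, a B-type lamin, had a mean of 514 CPM (counts on a common scale of the TMM-adjusted library size) in WT mES cells, 8.46 in TKO and 13.8 in QKO. *Lmnb2* had 105, 4.30 and 2.58 CPM, and *Lmna*, which is low in pluripotent cells, 57.7, 15.9 and 19.1. In EpiLCs *Lmnb1* and *Lmnb2* were again called lower in TKO and QKO, whereas *Lmna*, at 11.3 CPM in WT, 7.74 in TKO and 8.38 in QKO, was not called, so it checks the labels less well there. *Lbr* reads remained at 209 CPM in LBRKO and 237 in QKO mES cells against 372 in WT, so read counts do not check the indels. Summed markers of naive cells were 3727 to 5241 CPM in mES libraries and 119 to 306 in EpiLC libraries, and those of the epiblast were 130 to 210 and 2204 to 3838.

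*Apoa2* was close to silent in WT and LBRKO cells and present in every TKO and QKO library. In WT mES cells it had 0 CPM in the lowest library, a median of 0.0659 and 0.112 in the highest, from at most 5 reads. The 4 LBRKO mES libraries had 0.0213, 0.115, 0.0424 and 0.050 CPM. These groups overlapped and both sat at the level of single reads, so no fold is given between them. TKO mES libraries had 6.14, 5.42, 4.92 and 5.22 CPM, from 143 to 186 reads. QKO mES libraries had 6.75, 5.63, 7.30 and 5.93 CPM. No TKO or QKO library came near a WT or LBRKO one.

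In EpiLCs *Apoa2* was again high in TKO and QKO and near 0 in WT and LBRKO. WT EpiLCs ran from 0 through a median of 0.0925 to 0.350 CPM, and the highest value was replicate 8 with 16 reads. LBRKO EpiLCs had 0.0908, 0.0255, 0.0209 and 0.0638 CPM. TKO EpiLCs had 5.38, 5.18, 6.99 and 4.96 CPM and QKO EpiLCs 8.31, 8.79, 8.74 and 9.35. Every QKO EpiLC library was above every other library of the series. Because WT had so few reads, the ratio of pooled CPM is given with its exact 95% counting interval, which covers counting error only. In mES cells it was 106 (63.8 to 191) for TKO and 125 (75.5 to 225) for QKO against WT. In EpiLCs it was 48.8 (34.5 to 71.1) for TKO and 77.1 (54.8 to 112) for QKO. Without WT EpiLC replicate 8 it was 78.0 (48.9 to 132) and 123 (77.6 to 209).

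*Nod1* had the highest CPM of the 3 genes in TKO and QKO and was low but not silent in WT. WT mES libraries ran from 1.45 through a median of 2.30 to 3.82 CPM, and LBRKO mES libraries had 5.45, 4.64, 6.85 and 7.21. TKO mES libraries had 44.0, 53.0, 50.3 and 51.4 CPM, and QKO mES libraries 54.8, 67.8, 60.8 and 57.5. The 4 genotypes did not overlap in mES cells. WT EpiLCs ran from 1.03 through 1.44 to 1.83 CPM, and LBRKO EpiLCs had 1.75, 1.81, 2.32 and 1.98. TKO EpiLCs had 24.5, 25.9, 27.4 and 31.2 CPM, and QKO EpiLCs 30.2, 34.5, 40.6 and 38.5. Here WT met LBRKO, and TKO met QKO, at the edges of their ranges. The log2 fold change against WT was 4.34 in TKO and 4.61 in QKO mES cells, and 4.27 and 4.67 in EpiLCs. The mES values depend on the WT set, as *Nod1* had 1.55 CPM in WT mES replicates 1 to 4 and 3.25 in replicates 5 to 8. Against LBRKO, QKO differed by 3.32 in mES cells and 4.19 in EpiLCs.

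*Tlr2* had the smallest separation, and its 2 lamin-free genotypes parted in EpiLCs. WT mES libraries ran from 1.57 through 3.08 to 4.59 CPM, and LBRKO mES libraries had 1.92, 1.59, 2.04 and 2.08, within the WT range. TKO mES libraries had 13.2, 13.5, 11.1 and 8.32 CPM, and QKO mES libraries 17.3, 12.8, 19.1 and 16.3. All of these were above WT. WT EpiLCs ran from 1.21 through 1.46 to 2.00 CPM and LBRKO EpiLCs had 1.09, 0.817, 1.07 and 1.6. TKO EpiLCs had 9.79, 13.0, 12.5 and 11.9 CPM, as high as in mES cells. QKO EpiLCs had 3.89, 3.23, 3.44 and 3.64 CPM, between WT and TKO and overlapping neither at that stage. The log2 fold change against WT was 1.95 in TKO and 2.46 in QKO mES cells, and 2.98 and 1.25 in EpiLCs. The mES values depend on the WT set, as *Tlr2* had 4.09 CPM in WT mES replicates 1 to 4 and 1.94 in replicates 5 to 8. All 3 members had no overlap between WT and TKO or QKO at either stage, as the choice of genes entails, and so did 14.3% of all genes in TKO and 28.1% in QKO mES cells, and 9.21% and 37.5% in EpiLCs.

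**Figure D1:**
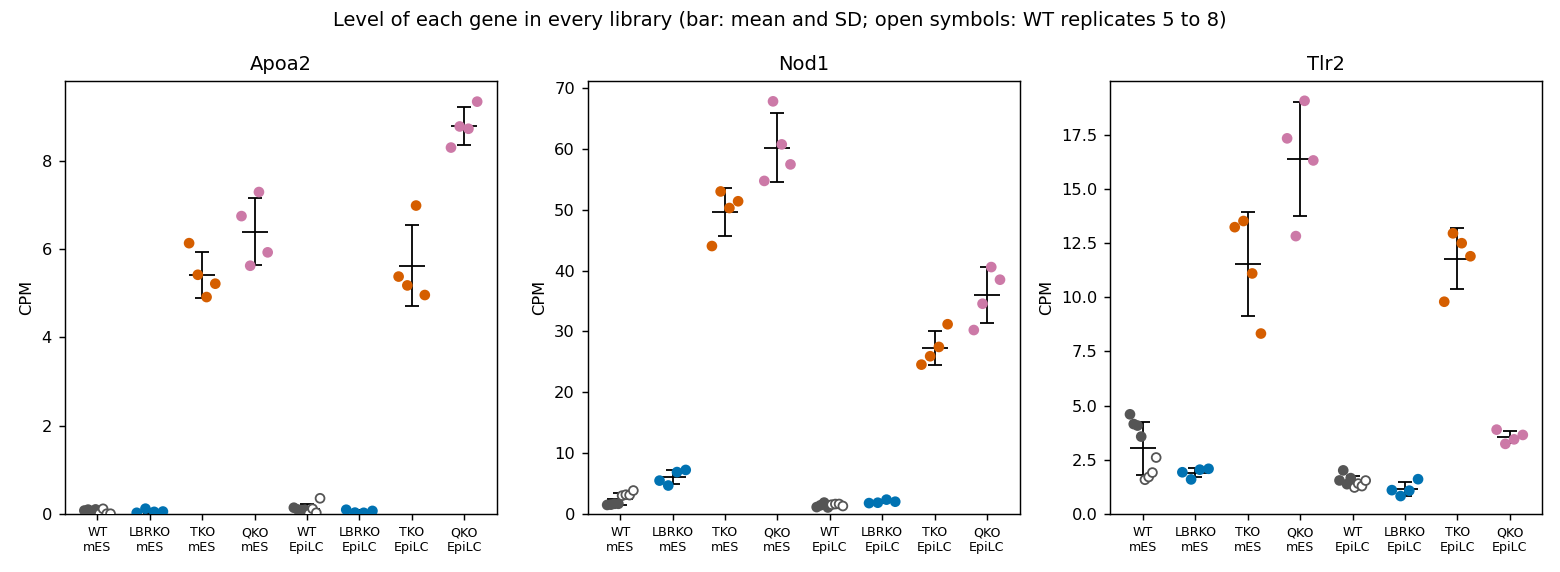
CPM of *Apoa2*, *Nod1* and *Tlr2* in each library (points) with the mean and SD of each group (black bars), on linear axes with a scale for each gene. Open symbols are WT replicates 5 to 8. TKO and QKO stand above WT and LBRKO in all panels, and *Tlr2* in QKO EpiLCs, at 3.55 ± 0.28 CPM, lies far below the 11.8 ± 1.40 CPM of TKO EpiLCs.

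Per kb of exon, which allows levels to be set side by side between genes, *Apoa2* and *Nod1* were alike in mES cells without lamins and *Tlr2* was lower. In QKO mES cells mean CPM per kb was 11.9 for *Apoa2*, 11.9 for *Nod1* and 5.44 for *Tlr2*. In QKO EpiLCs it was 16.4, 7.08 and 1.18, and in TKO EpiLCs 10.5, 5.37 and 3.91. In WT mES cells it was 0.101, 0.472 and 1.00, so that *Tlr2* was the highest of the 3 there and the lowest in cells without lamins.

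The order of group means differed between the genes. For *Apoa2*, QKO EpiLCs stood alone at the top, QKO mES cells, TKO EpiLCs and TKO mES cells overlapped from one to the next, and the other 4 groups overlapped likewise. For *Nod1*, QKO mES cells were followed by TKO mES cells without overlap, then by QKO and TKO EpiLCs, which overlapped, and then by LBRKO mES cells, WT mES cells, LBRKO EpiLCs and WT EpiLCs, of which only the first was clear of its lower neighbour. For *Tlr2*, QKO mES cells, TKO EpiLCs and TKO mES cells overlapped, QKO EpiLCs and WT mES cells overlapped, and the other 3 groups each overlapped the next. DESeq2's normalised counts gave the same orders.

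The comparisons that did not choose the genes could be tested, although they share libraries with those that did. They were fitted with edgeR's quasi-likelihood test over all 23399 genes with Benjamini-Hochberg adjustment, and a gene was called changed with an adjusted p under 0.05 and a fold over 2. Errors of log2 fold changes are SE, those of CPM are SD, and n was 8 for WT and 4 for each mutant.

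In LBRKO mES cells *Nod1* was higher than in WT, and *Tlr2* was not called. *Nod1* went from 2.40 ± 0.94 to 6.04 ± 1.20 CPM, a log2 fold change of 1.29 ± 0.16 (adjusted p = 5.6e-08), with no overlap. It was 1 of 2 members that could be tested, where 6.31% of all genes were called and 14% had no overlap between these groups. *Tlr2* differed by -0.65 ± 0.22 (adjusted p = 0.024), under the 2-fold threshold. In EpiLCs, where 5.67% of genes were called, neither passed: the difference was 0.48 ± 0.20 for *Nod1* (adjusted p = 0.069) and -0.38 ± 0.23 for *Tlr2* (adjusted p = 0.25). The edgeR count there was 0 of 2 members, as it was with DESeq2, and 1 had an unadjusted p under 0.05.

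The position of *Nod1* and the WT replicates bear on this difference. Genes of chromosome 6, where *Nod1* lies, had a median log2 difference of 0.38 between LBRKO and WT mES cells against 0.02 for all genes, and *Nod1* was 0.92 above that chromosome median. In EpiLCs the median was 0.37 and *Nod1* was 0.11 above it. The study's methods state that part of the WT cells were trisomic for chromosomes 6 and 8, and the part of chromosome number in the result was not tested. WT replicates also split: *Nod1* had 1.55 ± 0.10 CPM in WT mES replicates 1 to 4 and 3.25 ± 0.39 in replicates 5 to 8 (n = 4 each), and *Tlr2* had 4.09 ± 0.42 and 1.94 ± 0.46. Against WT replicates 5 to 8 alone the *Nod1* difference was 0.89 (adjusted p = 1.7e-06), under 2-fold, and against WT replicates 1 to 4 alone *Tlr2* differed by -1.10 (adjusted p = 3.2e-06), past both thresholds.

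*Tlr2* was lower in QKO than in TKO EpiLCs. It went from 11.8 ± 1.40 CPM in TKO to 3.55 ± 0.28 in QKO EpiLCs, a log2 fold change of -1.73 ± 0.24 (adjusted p = 1.0e-07), and the libraries did not overlap. It was 1 of 3 members called, where 15.3% of genes were called and 42.3% had no overlap. In mES cells the same comparison gave 0.51 ± 0.22 for *Tlr2* (adjusted p = 0.11, 95% interval 0.07 to 0.94). The change in EpiLCs thus ran against the uncalled difference in mES cells, and the interaction of stage and genotype was -2.24 ± 0.32 (adjusted p = 1.2e-06), where 18.6% of genes passed.

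*Apoa2* and *Nod1* were not called between QKO and TKO at either stage. In mES cells, where 6.21% of genes were called, the difference was 0.24 ± 0.30 for *Apoa2* (adjusted p = 0.63, 95% interval -0.35 to 0.83) and 0.28 ± 0.17 for *Nod1* (adjusted p = 0.26, 95% interval -0.05 to 0.61). *Nod1* libraries did not overlap there, as was true of 30.8% of genes. In EpiLCs it was 0.64 ± 0.30 for *Apoa2* (adjusted p = 0.081, 95% interval 0.06 to 1.23), with every QKO library above every TKO library, and 0.40 ± 0.17 for *Nod1* (adjusted p = 0.057, 95% interval 0.06 to 0.73). The interaction with stage was 0.41 for *Apoa2* (adjusted p = 0.60) and 0.12 for *Nod1* (adjusted p = 0.81).

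Passage from mES cells to EpiLCs, labelled as naive and primed pluripotency, was accompanied by lower *Nod1* in all 4 genotypes. Only LBRKO passed both thresholds. The log2 difference was -0.80 ± 0.16 in WT (adjusted p = 4.0e-05), -0.86 ± 0.17 in TKO (adjusted p = 3.4e-05) and -0.74 ± 0.17 in QKO (adjusted p = 2.4e-04), each past the adjusted p but under 2-fold. In LBRKO it was -1.61 ± 0.20 (adjusted p = 4.8e-09). The LBRKO difference from WT was larger in mES cells than in EpiLCs, with an interaction of -0.82 ± 0.26 (adjusted p = 0.025), where 15.5% of genes passed. It missed the threshold when only these 4 groups were fitted (adjusted p = 0.11), against WT replicates 5 to 8 alone (-0.48, adjusted p = 0.12) and without any 1 of 5 LBRKO libraries. The called share of all genes between stages was 31.1% in WT, 26.5% in LBRKO, 30.3% in TKO and 30.3% in QKO.

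*Tlr2* fell between stages in WT and QKO and did not pass in LBRKO or TKO. It fell by 1.00 ± 0.18 on the log2 scale in WT (adjusted p = 4.8e-06), at the edge of the 2-fold threshold (by 0.52 with WT replicates 5 to 8 alone), and by 2.21 ± 0.24 in QKO (adjusted p = 1.1e-10). The difference was -0.73 ± 0.26 in LBRKO (adjusted p = 0.015) and 0.03 ± 0.22 in TKO (adjusted p = 0.92, 95% interval -0.41 to 0.47). The LBRKO interaction was 0.27 (adjusted p = 0.63). *Apoa2* differed by 0.05 ± 0.30 in TKO (adjusted p = 0.90) and 0.46 ± 0.30 in QKO (adjusted p = 0.20), and its reads in WT and LBRKO were too few for a fold.

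**Figure D2:**
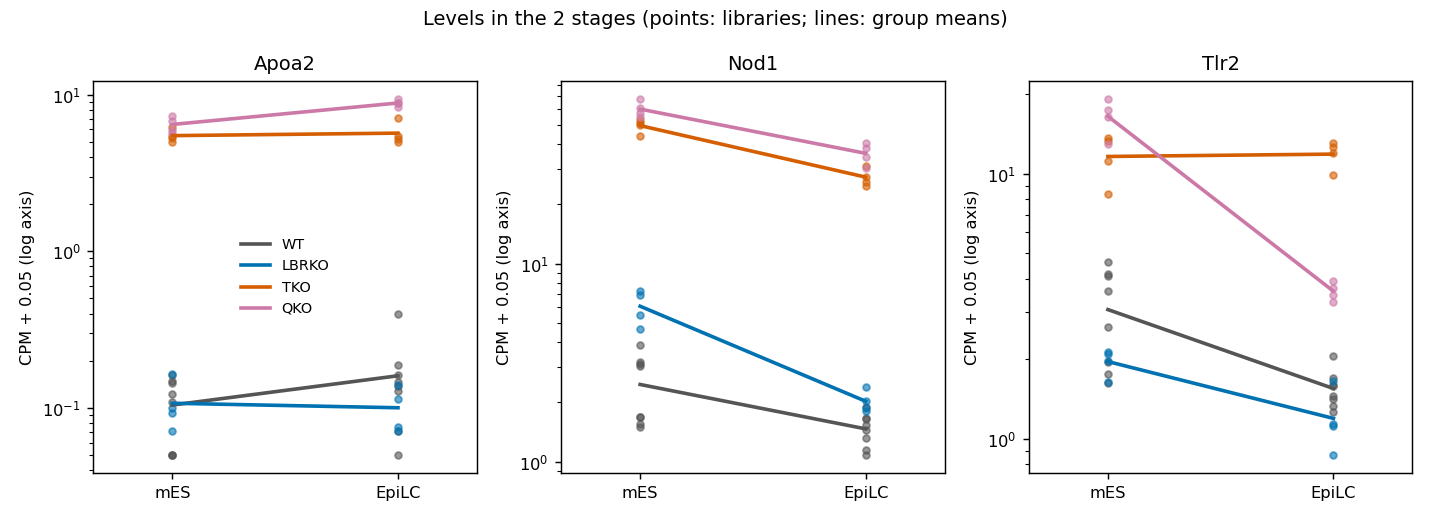
CPM + 0.05 on a log axis for each library (points) in mES cells and EpiLCs, with lines joining the group means of WT, LBRKO, TKO and QKO. *Nod1* lines slope down in all 4 genotypes, whereas *Tlr2* is level in TKO (11.5 and 11.8 CPM) and drops in QKO (16.4 to 3.55 CPM).

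Most genes near the members were not called. Within 200 kb lay 49 other genes, of which 33 passed the filter, with 26 near *Apoa2*, 5 near *Nod1* and 2 near *Tlr2*. In TKO mES cells 8 of the 33 (24.2%) were called, 4 higher and 4 lower, against 6.45% of all genes. In QKO mES cells 3 were higher and 3 lower (18.2%), against 17.2%. In EpiLCs 2 were higher in TKO (6.06%, against 2.92%), and in QKO 6 were higher and 2 lower (24.2%, against 21.2%). In LBRKO cells edgeR and DESeq2 called 0 of 33 at either stage, and 7 in mES cells and 13 in EpiLCs had an unadjusted p under 0.05. Between QKO and TKO 2 were called in mES cells (6.06%) and 6 in EpiLCs (18.2%), where 6.21% and 15.3% of all genes were.

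Around *Apoa2*, the nearest tested genes did not pass. *Tomm40l*, a relative of a mitochondrial import channel 2540 bp upstream, differed by -0.50 in TKO mES cells (adjusted p = 0.0044), under 2-fold. *Fcer1g*, a signalling subunit of Fc receptors 3193 bp downstream, was not called in any comparison with WT or with TKO. *Nr1i3*, 4353 bp upstream, did not pass the filter on low counts and so was not tested by edgeR. It was called in QKO mES cells by DESeq2, and in QKO at both stages against WT replicates 5 to 8 alone. The genes that edgeR called lay farther off and went both ways. *Fcgr3*, a low-affinity receptor for IgG 160119 bp upstream, rose in TKO mES cells by 2.16 ± 0.55 (adjusted p = 0.0029) and in QKO mES cells by 3.45 ± 0.52 (adjusted p = 5.6e-07). *Mir6546* lies inside the span of *Fcgr3*, and its reads cannot be told apart from those of that gene. *Arhgap30* fell in TKO by 1.02 on the log2 scale and in QKO mES cells by 1.23, and *Pcp4l1* and *Nectin4*, an adhesion protein, fell in TKO mES cells by 1.36 and 1.28. These 2 missed the call against 1 set of WT replicates each: *Pcp4l1* was at -0.89 against replicates 1 to 4 and *Nectin4* at -0.91 against replicates 5 to 8. The TKO call of *Arhgap30* was lost with a block for replicate number (-0.97) and without TKO mES replicate 1 or 4 or WT mES replicate 1.

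Beside *Nod1*, *Ggct* rose in EpiLCs only by the call, while edgeR and DESeq2 called 0 of 5 neighbours in TKO or QKO mES cells (4 of 5 with an unadjusted p under 0.05 in each). In QKO EpiLCs both called 3 of 5, *Ggct*, *Crhr2* and *Gm44185*, where 21.2% of all genes were called. Against WT replicates 5 to 8 alone *Gm44185*, 18221 bp downstream, was called in LBRKO, TKO and QKO mES cells. In QKO EpiLCs it was then under 2-fold (0.99). *Ggct*, a glutathione-cycle enzyme that starts 9968 bp upstream, went from a mean of 6.35 CPM in WT EpiLCs to 19.1 in TKO, a log2 fold change of 1.59 ± 0.14 (adjusted p = 2.3e-11), and to 18.7 in QKO (1.55 ± 0.14, adjusted p = 2.8e-12). In mES cells it differed by 0.65 in TKO (adjusted p = 0.0010) and 0.77 in QKO (adjusted p = 5.0e-05), under 2-fold. *Crhr2*, a receptor for corticotropin-releasing hormone peptides 117437 bp upstream, rose in QKO EpiLCs by 2.49 ± 0.23 (adjusted p = 5.0e-12). *Gars1*, glycyl-tRNA synthetase, and *Znrf2*, a ubiquitin ligase, were not called against WT.

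Of the neighbours of *Tlr2*, *Sfrp2* moved in part like it. *Sfrp2*, a secreted modulator of Wnt signalling 61956 bp downstream, rose in TKO mES cells from 1.23 to 2.49 CPM (1.03 ± 0.14, adjusted p = 2.8e-07), and the difference in QKO was 0.99 (adjusted p = 2.2e-07), just under 2-fold. The TKO value was 0.84 against WT replicates 1 to 4 alone. In EpiLCs it had 18.5 CPM in WT, 36.3 in TKO (0.98 ± 0.11, adjusted p = 4.8e-09, past 2-fold with DESeq2) and 16.3 in QKO. It fell from TKO to QKO EpiLCs by 1.16 on the log2 scale (adjusted p = 1.4e-09), and its interaction of stage and genotype was -1.12 ± 0.20 (adjusted p = 6.1e-05). *Tmem131l*, 55888 bp upstream, was not called against WT.

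**Figure D3:**
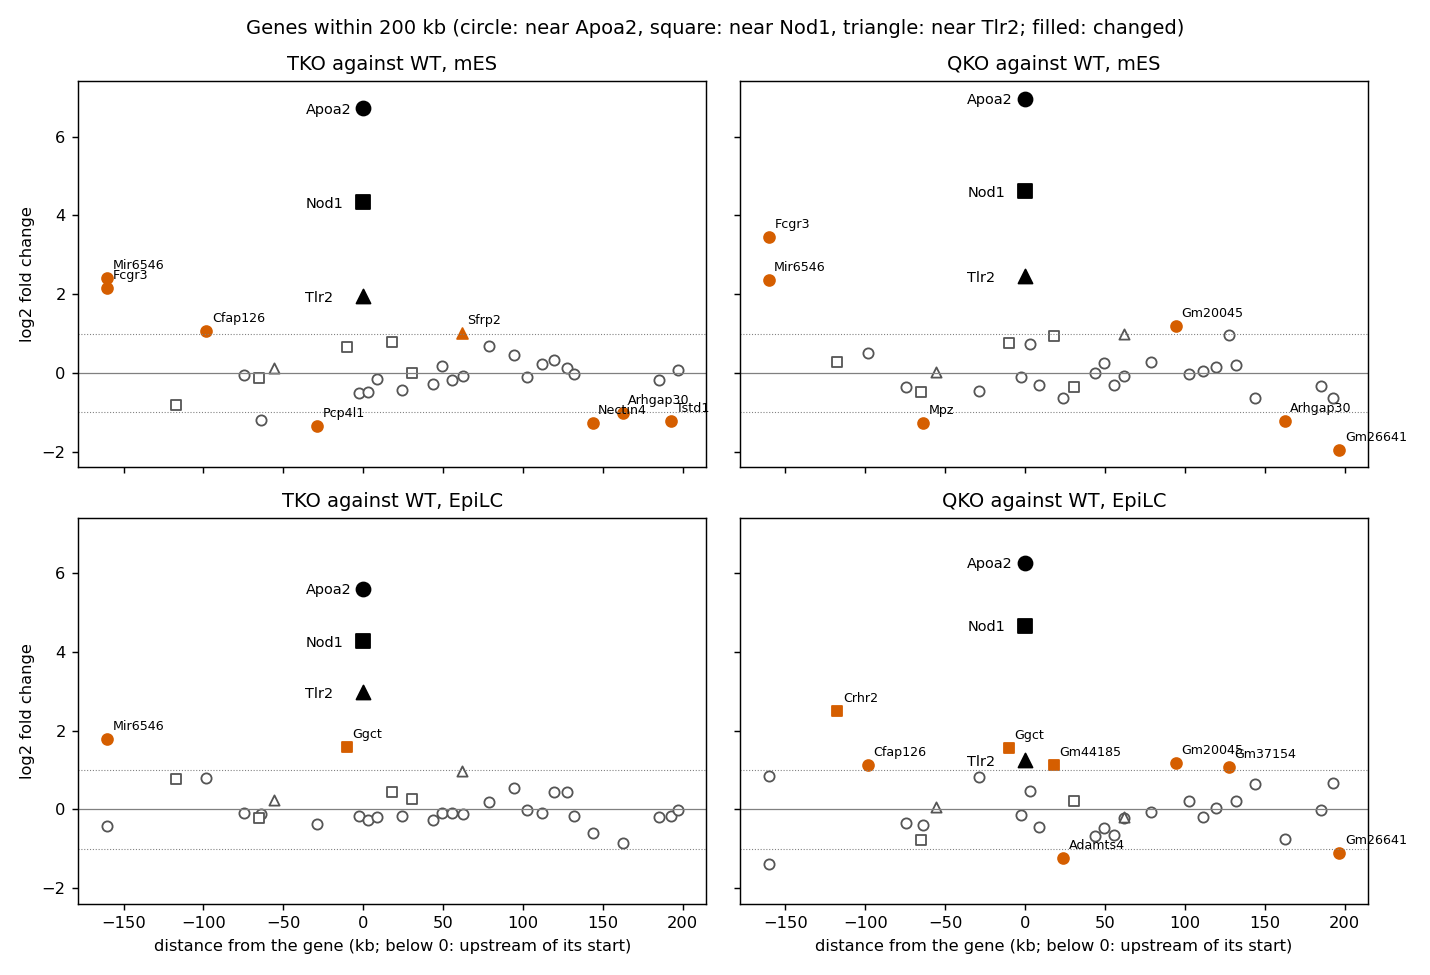
log2 fold change against WT (y axis) of the tested genes within 200 kb of each member by distance in kb (x axis, negative upstream), for TKO and QKO at both stages. Black symbols are the members, with *Apoa2* at the log2 of its pooled CPM ratio, filled orange symbols are called genes and open symbols are not, and dotted lines mark 2-fold. *Apoa2* and *Nod1* stand above each tested neighbour of any member in all 4 panels. In mES cells *Tlr2* is exceeded by *Fcgr3* (and in TKO by *Mir6546*), neighbours of *Apoa2*. In QKO EpiLCs it is exceeded by *Crhr2* and *Ggct*, neighbours of *Nod1*.

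Transposable element (TE) copies were read from a table of single copies. The members and the 10 kb around them held 195 copies, 35 at *Apoa2*, 128 at *Nod1* and 32 at *Tlr2*, of which 20 had enough reads to test. Most of these, 18, were at *Nod1*. Its introns held 76 copies, 27 on the strand of the gene and 49 on the other, and because the strand setting of the counting is not given, reads of an intronic copy and of unspliced *Nod1* RNA cannot be told apart. Their summed level was 0.53 ± 0.21 CPM in WT, 1.6 ± 0.24 in LBRKO, 8.61 ± 0.70 in TKO and 13.0 ± 1.53 in QKO mES cells. In EpiLCs it was 0.29 ± 0.16, 0.41 ± 0.21, 3.97 ± 0.59 and 9.30 ± 0.09. The 22 copies downstream of *Nod1* summed to 0.38 ± 0.13 CPM in WT, 0.84 ± 0.32 in LBRKO, 0.88 ± 0.30 in TKO and 1.13 ± 0.32 in QKO mES cells. The 26 upstream summed to 0.13 ± 0.11, 0.17 ± 0.10, 0.44 ± 0.17 and 0.62 ± 0.16. In EpiLCs, in the same order, the downstream copies summed to 0.32, 0.45, 0.66 and 0.72 and the upstream ones to 0.18, 0.18, 0.54 and 0.59.

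Per 100 reads of *Nod1* the intronic copies had 22.5 reads in WT mES cells, 17.3 in TKO and 21.7 in QKO. Reads over introns and over the gene were higher than in WT mES cells by 16.3-fold and 20.7-fold in TKO, and by 24.7-fold and 25.1-fold in QKO. In EpiLCs these factors were 13.8-fold and 19.3-fold in TKO, and 32.3-fold and 25.5-fold in QKO. Between QKO and TKO mES cells the copies differed by 1.51-fold and the gene by 1.21-fold. The factors parted more between QKO and TKO EpiLCs, where the copies differed by 2.34-fold and the gene by 1.32-fold, at 26.2 and 14.6 reads per 100. Among 17 tested copies inside *Nod1*, the number higher than in WT was 16 in TKO and 17 in QKO mES cells, and 12 and 17 in EpiLCs. Over all TE copies tested the share called higher was 3.44%, 24.1%, 2.02% and 29.6%. These contrasts chose the gene, and the counts are descriptions.

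The copy with the most reads was no intronic element. X8_LINE_dup44 (chr6:54907189-54907237) lies wholly in a coding exon of *Nod1* (chr6:54907161-54907244), shown because the copy's reads are those of the exon. The exon is printed on the strand of the gene, with the copy in capitals.

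Nod1 exon: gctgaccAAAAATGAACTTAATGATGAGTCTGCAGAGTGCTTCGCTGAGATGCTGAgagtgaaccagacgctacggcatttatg

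Mean CPM of this copy was 0.17 in WT, 0.50 in LBRKO, 4.07 in TKO and 4.85 in QKO mES cells, the order of *Nod1* itself. It was the only copy called in LBRKO mES cells, by 1.44 ± 0.32 (adjusted p = 0.0055), where 0.396% of TE copies were higher, and the call was lost without LBRKO mES replicate 3 and against WT replicates 5 to 8 alone. In LBRKO EpiLCs edgeR and DESeq2 called 0 of 20 (1.18% of all copies were higher), with 1 at an unadjusted p under 0.05. The 76 intronic copies of *Nod1* together had 75 reads in all LBRKO and 84 in all WT EpiLC libraries. For most copies that count could therefore show little. Between QKO and TKO EpiLCs 1 of the 17 copies inside *Nod1* passed, against 12.6% of all copies. It was MTB_Mm_dup1732 (chr6:54903649-54904053), an LTR copy that overlaps an annotated exon on the other strand, with 0.35 CPM in QKO and 0.03 in TKO (3.51 ± 0.89, adjusted p = 0.0045). DESeq2 called 5 of all 20.

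**Figure D4:**
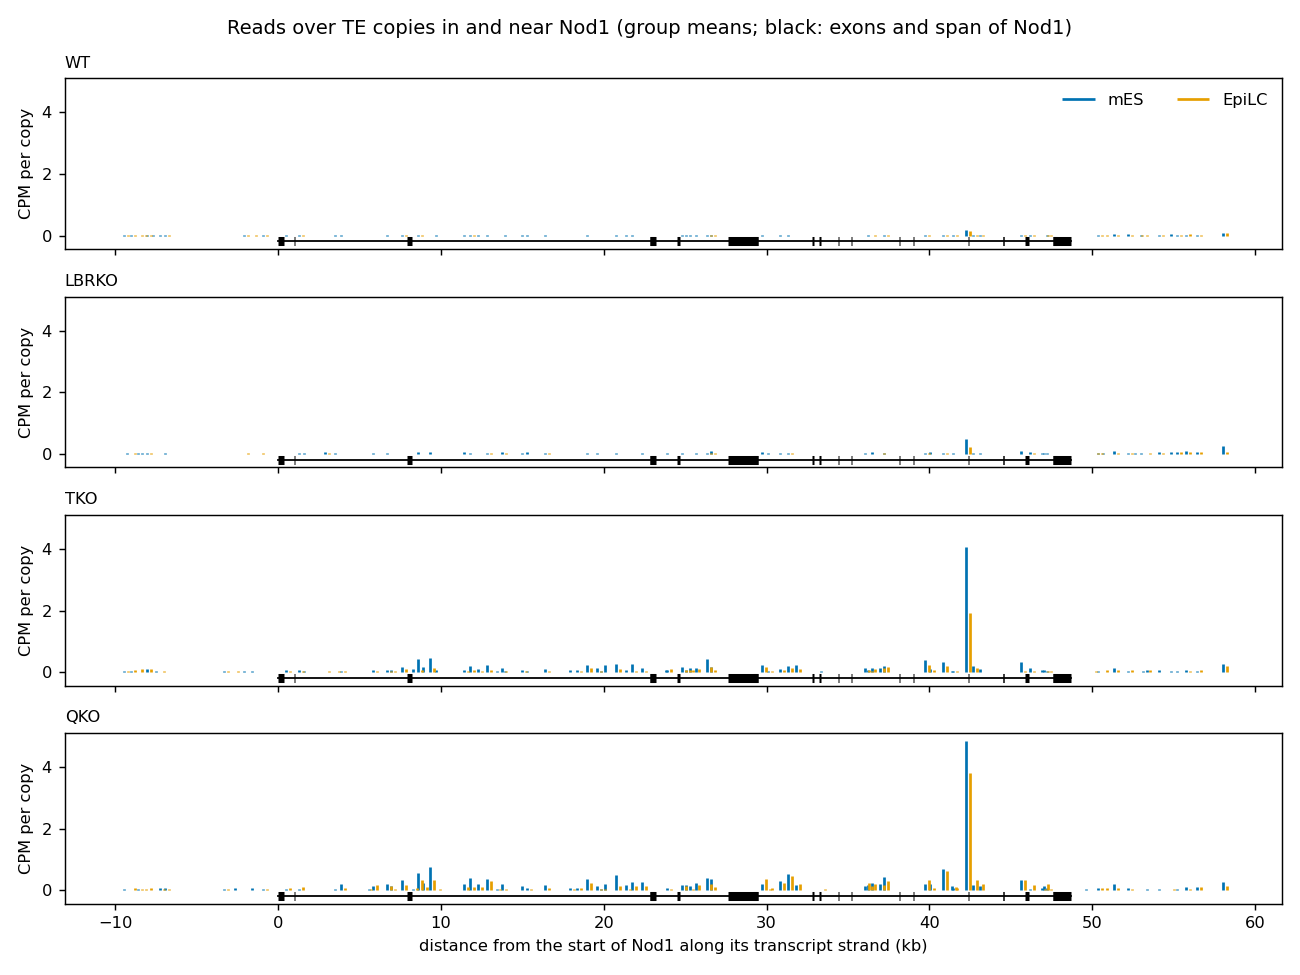
Mean CPM of each TE copy (vertical lines, blue in mES cells and orange in EpiLCs) by distance in kb from the start of *Nod1*, with exons as black blocks, in a panel for each genotype. The tallest line in TKO and QKO is X8_LINE_dup44 at 4.07 and 4.85 CPM in mES cells, in an exon. Single copies outside the gene stay low in all groups, although their sums were higher in TKO and QKO than in WT.

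Copies around the other members had few reads. Upstream of *Apoa2*, RLTR41_dup63 (chr1:171046547-171046648), an LTR copy inside the spans of *Tomm40l* and *Nr1i3*, fell in TKO mES cells by 1.13 on the log2 scale (adjusted p = 0.0072), where 0.674% of copies were lower. Downstream of *Tlr2*, the SINE copy B2_Mm1t_dup3947 (chr3:83737585-83737781) rose in QKO mES cells by 1.55 ± 0.52 (adjusted p = 0.020) and in TKO EpiLCs by 2.40 ± 0.53 (adjusted p = 0.0015), from 0.14 and 0.10 CPM in WT. This copy lies inside the span of *Gm7115*, a transcribed pseudogene, and its reads cannot be told apart from those of that gene. None of these 3 calls held against WT replicates 1 to 4 alone. The 17 copies upstream of *Tlr2* together had 0 to 2 reads in a WT mES library, 3 to 12 in TKO and 9 to 14 in QKO. In EpiLCs they had 0 to 1 in a WT library, 0 to 4 in TKO and 0 to 4 in QKO. The 5 copies just before *Apoa2*, within the longer span that GENCODE M39 gives it, summed to 0.038 CPM in WT, 0.136 in TKO and 0.284 in QKO mES cells, and to 0.479 in QKO EpiLCs.

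The genes around these receptors and this apolipoprotein were read from 11 lists with 101 genes, of which 70 passed the filter. Few of them were called in TKO. In TKO mES cells 0 were higher and 3 lower (4.29% of 70), *Tlr3*, *Nlrx1* and *Lipc*, and in TKO EpiLCs edgeR and DESeq2 called 0 of 70, with 26 at an unadjusted p under 0.05. In QKO 5 were higher and 8 lower in mES cells (18.6%) and 6 and 6 in EpiLCs (17.1%). In LBRKO 6 were higher and 1 lower at each stage (10%). The shares of all genes called are those given above for the same comparisons.

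Of the partners of TLR2, *Tlr1*, *Tlr6*, *Cd36* and *Lbp* were too low to test, *Tlr1* and *Tlr6* at no more than 0.0168 CPM per kb in any group. *Cd14*, a coreceptor, was tested and not called between genotypes. Downstream, *Myd88* had 5.11 CPM per kb in WT mES cells and 1.99 in WT EpiLCs, and *Irak1* 14.4 and 8.81. In QKO EpiLCs *Irak2*, a kinase of the pathway, fell by 1.59 on the log2 scale and *Irak3*, a brake on it, rose by 2.21 ± 0.13. *Ripk2*, the kinase that NOD1 signals through, fell in QKO EpiLCs by 1.26 and was not called in TKO. *Arhgef2*, which acts with NOD1, fell in QKO by 1.11 in mES cells and 1.34 in EpiLCs.

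Subunits of NF-kB and of its kinase complex gave 0 calls by edgeR and by DESeq2 among 8 tested in LBRKO, TKO and QKO against WT, with 2 to 6 at an unadjusted p under 0.05. Of 7 tested NF-kB target genes 0 were called in TKO at either stage by both tools (1 in mES cells and 2 in EpiLCs at an unadjusted p under 0.05). *Csf1*, a growth factor of macrophages, rose in LBRKO mES cells by 1.12 and in QKO by 1.62, and *Traf1* fell by 1.07 and 1.30. *Icam1*, an adhesion molecule, rose in QKO EpiLCs by 1.04. Among other pattern receptors, *Tlr5*, the receptor for flagellin, rose in LBRKO mES cells by 1.11 ± 0.35, from a spread of 1.01 ± 0.62 CPM in WT. It rose by 3.42 in LBRKO EpiLCs and by 2.30 in QKO EpiLCs, whereas *Nlrx1* fell by 2.66 in TKO and 2.69 in QKO mES cells. *Nlrc4* rose by 2.81 in LBRKO EpiLCs (23.0 CPM, 3.21 ± 1.83 in WT) and by 2.61 in QKO EpiLCs (20.0 CPM). *Nlrc5* rose by 2.89 in QKO mES cells, from 0.0575 to 0.454 CPM.

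Among other apolipoproteins and HDL genes, *Apoe* was abundant at 128 CPM per kb in WT mES cells and not called between genotypes, and *Apoa1*, the main HDL protein, was too low to test. *Apom*, which carries sphingosine-1-phosphate on HDL, rose in QKO by 1.22 in mES cells and 1.69 in EpiLCs. *Lipc*, hepatic lipase, fell by 2.33 ± 0.42 in TKO and 3.58 ± 0.47 in QKO mES cells, from a widely spread 4.15 ± 2.58 CPM in WT. Of regulators known to act on *Apoa2*, *Hnf4a*, a liver and endoderm transcription factor, rose in LBRKO by 1.40 in mES cells and 2.84 in EpiLCs and in QKO by 1.10 and 4.31 ± 0.24. In TKO it differed by 0.60 and 0.69 without being called. The part of *Hnf4a* in the levels of *Apoa2* was not tested.

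Markers of visceral endoderm, where *Apoa2* is active in the embryo, are given for comparison. Their summed level was 9.44 to 11.9 CPM in WT, 20.7 to 22.9 in LBRKO, 6.60 to 7.13 in TKO and 3.77 to 4.94 in QKO mES cells. In EpiLCs it was 27.3 to 34.9, 36.6 to 43.0, 30.5 to 32.3 and 31.5 to 36.5, and the defining *Afp*, *Ttr* and *Alb* were near 0 in all groups. Of 10 tested markers, *Trf* and *Dab2* were higher and *Cubn* lower in LBRKO mES cells, and 0 were called in LBRKO EpiLCs by edgeR or DESeq2 (4 at an unadjusted p under 0.05), where *Trf* alone had 21.9 CPM (11.3 in WT) and *Dab2* 4.30 (6.37 in WT). In TKO mES cells *Cubn* and *Dab2* were lower, and in TKO EpiLCs 0 were called by edgeR or DESeq2 (2 at an unadjusted p under 0.05). *Foxa2*, *Trf*, *Gata4*, *Sox7* and *Dab2* were lower in QKO mES cells. In QKO EpiLCs *Amn*, *Sox7*, *Dab2* and *Rbp4* were lower and *Gata6* was higher (2.90 CPM, 0.371 in WT), while *Trf* alone had 18.6 CPM. Markers of myeloid cells, which use *Tlr2* and *Nod1*, summed to 190 to 219 CPM in WT, 173 to 189 in TKO and 177 to 192 in QKO mES cells, mostly from *Laptm5* and *Cd68*. In EpiLCs they were 15.0 to 20.7 in WT, 33.2 to 43.6 in LBRKO, 12.8 to 16.6 in TKO and 54.1 to 68.6 in QKO, and the defining *Adgre1*, *Lyz2* and *Tyrobp* were at or near 0 at both stages. Of 6 tested, *Laptm5* was called higher in LBRKO EpiLCs (28.8 CPM, 8.99 in WT) and in QKO EpiLCs (37.5 CPM). In QKO EpiLCs *Cd68* was also higher (21.1 CPM, 5.57 in WT) and *Spi1* was lower by 1.02, and DESeq2 called 2 markers there. In TKO both tools called 0 at either stage, with 1 at an unadjusted p under 0.05 at each. *Ptprc* was near 0 in mES cells and had 0.588 CPM in WT, 0.549 in LBRKO, 0.565 in TKO and 0.415 in QKO EpiLCs. The part of either cell type in the levels of the members was not tested.

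Likeness to other genes was taken as Pearson's r of mean log2 CPM over the 8 groups, which share libraries and the split between genotypes with and without lamins, and is a description. Closest to *Apoa2* were *Pcna-ps2* (0.993), *Mir7688* (0.980), *Tagap* (0.975), *Vcpkmt* (0.973) and *Dnah6* (0.962). *Pcna-ps2*, a pseudogene, had 5.51 CPM in WT and 51.3 in TKO mES cells, and whether any of its reads come from its parent gene was not tested. Closest to *Nod1* were *Zfp429* (0.973), *Snord83b* (0.970), *Zfp273* (0.968), *Vmn2r-ps106* (0.955) and *Slfn10* (0.952), which include members of multigene families. Closest to *Tlr2* were *Cdc42ep3* (0.971), *Rps7-ps3* (0.961), *Ephx3* (0.955), *Fank1* (0.944) and *Rps3a3* (0.943). Among the members r was 0.946 for *Apoa2* and *Nod1*, 0.878 for *Nod1* and *Tlr2* and 0.841 for *Apoa2* and *Tlr2*.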

How the data were processed

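Total RNA (Ribo-Zero depleted, paired 150 bp reads) was measured in 40 libraries. The authors' reads were trimmed (cutadapt 2.5), aligned to GRCm39 (STAR 2.7.10a, GENCODE M30), and those aligned once were assigned to genes or single TE copies by featureCounts 1.6.4. TEcount gave a further set of values from reads aligned at up to 100 positions. The deposited values are raw read counts without normalisation. How strand was handled in counting is not given in the sources used here. Overlapping and antisense features are therefore uncertain. All columns of the tables matched a sample (0 did not).

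Counts were tested with edgeR 4.0.16 (filterByExpr, TMM scaling, quasi-likelihood test, Benjamini-Hochberg adjustment) in R 4.3.3 with limma 3.58.1 and data.table (1.17.8), in a single model with a mean for each of the 8 groups. Of 56748 genes, 23399 were tested, and of 3799629 TE copies, 134958, with the library sizes and scaling of the gene table. CPM used the scaled library size, and log2 means a prior count of 0.5. The 95% intervals of pooled *Apoa2* ratios are exact counting intervals, those of log2 fold changes come from the fitted model and its SE, and a level of at most 3 counts was taken as the floor. Depth ran from 22.6 to 48.9 M counts. The steps were tested on simulated data. DESeq2 1.42.0, other scalings and filters, a block for replicate number and left-out libraries were tried as alternatives. Python 3.11.15 with pandas 2.3.3 and SciPy 1.17.1 made the summaries.

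Positions are those of the gene table. 56017 of 56748 identifiers were found in GENCODE M39, and promoter sequence was read from GRCm39. The members, the gene lists and the tests were chosen with earlier results of these data known, and the lists support no direction on their own. Named genes were the members, the targeted genes, genes within 200 kb that passed the filter, the called list genes with the highest and lowest change, and the 5 genes most like each member with a mean of at least 1 CPM in the highest group. The other list genes named were chosen after their values were seen.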

Additional observations from a re-analysis of the deposited data

Results flagged for a closer look

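*Apoa2* in WT EpiLC replicate 8 stood apart from the other WT EpiLC libraries, with 0.350 CPM from 16 reads against 0 to 0.137 CPM in the rest. 32 groups of values were examined for such a library and 1 stood out, where chance would mark about 1 in 20. All TKO and QKO libraries were above it.

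The LBRKO difference of *Nod1* from WT differed between stages, with an interaction of -0.82 on the log2 scale (adjusted p = 0.025, edgeR), as the difference was 1.29 in mES cells and 0.48 in EpiLCs. The QKO difference of *Tlr2* from TKO also differed between stages, with an interaction of -2.24 (adjusted p = 1.2e-06, edgeR), from 0.51 in mES cells to -1.73 in EpiLCs.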

How the results depend on the processing

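DESeq2, RLE scaling, no filter on low counts and the table with multiple alignments each left the direction and the call of all 25 tested member values in place. Fitting only the groups compared changed 1 of 25 calls, the *Nod1* interaction of LBRKO (-0.82, adjusted p = 0.11). The replicate block changed 1, the stage difference of *Tlr2* in WT (-0.91, under 2-fold). Libraries with the same replicate number did not deviate together: the correlation of their deviations from the group means had a median of 0.007 (-0.19 to 0.25 over 48 pairs), so the numbers do not pair them. With WT replicates 5 to 8 alone, 5 of 8 values changed: *Nod1* in LBRKO mES cells (0.89) and its interaction (-0.48) lost the call, *Nod1* between WT stages gained it (-1.13), *Tlr2* between WT stages lost it (-0.52) and the uncalled LBRKO interaction of *Tlr2* changed sign (-0.21). With WT replicates 1 to 4 alone, *Tlr2* in LBRKO mES cells gained the call (-1.10). The cause was not tested.

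Leaving out 1 library at a time, the *Nod1* LBRKO interaction ran from -0.94 to -0.69 and lost its call without LBRKO mES replicate 3 or 4 or LBRKO EpiLC replicate 1, 2 or 4. *Tlr2* between WT stages ran from -1.10 to -0.89 and fell under 2-fold without any of WT mES replicates 1 to 4 or WT EpiLC replicates 3, 5, 6 and 7. The uncalled stage differences in TKO changed sign, from -0.10 to 0.093 for *Apoa2* and -0.13 to 0.11 for *Tlr2*. The pooled ratio of *Apoa2* in EpiLCs without WT replicate 8 was 78.0 for TKO and 123 for QKO.

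Called neighbours in LBRKO numbered 1 at each stage with the replicate block (*Fcer1g*, then *Sfrp2*), 1 in mES cells with WT replicates 5 to 8 and 2 in EpiLCs with WT replicates 1 to 4. In TKO mES cells there were 4 with the block and 5 with WT replicates 1 to 4, and in TKO EpiLCs 1 with the block, with WT replicates 1 to 4 and with multiple alignments. Between QKO and TKO mES cells there was 1 without the filter, with the block and with DESeq2. Without 1 library the counts ran from 0 to 1 in LBRKO at both stages (WT mES replicates 2, 3 and 6, LBRKO mES replicate 3, WT EpiLC replicate 8), 4 to 9 in TKO mES cells (TKO replicate 1), 1 to 3 in TKO EpiLCs (TKO replicate 1), 0 to 2 between QKO and TKO mES cells and 3 to 7 between them in EpiLCs (QKO replicate 1).

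TE copies called inside *Nod1* in LBRKO mES cells were 0 with TMM of the TE table or WT replicates 5 to 8, 3 with the block, 2 with WT replicates 1 to 4 and 0 to 2 without 1 library. Between QKO and TKO EpiLCs they were 4 with the block and 1 to 2 without 1 library. Outside the members, TKO had 0 at either stage with the block or WT replicates 1 to 4, and 0 in mES cells at a minimum of 10 reads (0 to 1 without 1 library in mES cells, 1 to 2 in EpiLCs). QKO mES cells had 0 with TMM of the TE table, the block or WT replicates 1 to 4, 2 with WT replicates 5 to 8 or DESeq2, 8 at 10 reads and 0 to 3 without 1 library. QKO EpiLCs had 1 with WT replicates 5 to 8 or DESeq2, 6 at 10 reads and 0 to 1 without 1 library. *Apoa2* in WT, and most TE copies, were limited by depth.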
